A study of Mus musculus with 14 samples.

Results

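Genes for the pore-forming and accessory subunits of sodium, calcium and potassium channels were followed in mouse intestinal organoids treated with Isx-9, an isoxazole compound known for inducing neuronal differentiation of progenitor cells. Members were chosen by gene symbol alone: names that begin with Scn and end in a subunit number with a or b, names that begin with Cacna, Cacnb or Cacng, and names that begin with Kcn and a letter. This took 135 of the 29634 symbols in the files, of which 120 were in the bulk count files and 131 in at least 1 single-cell file. Besides 9 sodium channel α, 4 sodium channel β, 10 calcium channel α1, 4 calcium channel α2δ, 4 calcium channel β and 7 γ genes, and 39 voltage-gated potassium channel genes, the naming rule also takes potassium channel genes that are not, or not mainly, gated by voltage. These are 15 inward rectifiers, 14 tandem-pore leak channels and 8 channels activated by calcium or sodium, and the rule further takes 16 accessory subunits of potassium channels and 5 noncoding RNAs named after channel genes.

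Voltage-gated channels open when the membrane depolarises: sodium channels carry the fast upstroke of an action potential, calcium channels couple depolarisation to calcium entry and the release of stored hormone, and potassium channels bring the membrane back to rest. In the gut these currents are best known from enteroendocrine cells, the rare hormone-secreting cells of the epithelium, of which the serotonin-producing enterochromaffin cells are electrically excitable. Absorptive and secretory epithelial cells instead rely on potassium channels that set the driving force for chloride and sodium transport, chiefly the pore Kcnq1 with its partner Kcne3 and the calcium-activated Kcnn4.

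The bulk libraries came from intestinal stem cells sorted out of organoids that carry a Lgr5-EGFP knock-in, 2 libraries after 6 h in 0.05% DMSO and 2 after 6 h in 25 µM Isx-9. Whole organoids gave 1 single-cell library each from untreated wild-type organoids, untreated Chgb-mCherry knock-in reporter organoids, and reporter organoids after 6 d in DMSO or 6 d in Isx-9; 6 chromatin accessibility samples were not analysed here. All were grown with EGF, noggin and R-spondin1, and treatment began on day 2 after passaging. The labels do not say that replicates were separate cultures, so a p-value reflects how far these libraries scatter, which may be technical only.

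Total counts were between 18909542 and 19487264 in the 4 bulk libraries. Lgr5, the stem cell marker of the sort, had 359 ± 26.2 CPM (counts per 1000000 of a library; SD, n = 2) in DMSO and 316 ± 5.87 in Isx-9. Between 8745 and 10016 cells per single-cell library were kept, with a median of 9374 unique molecular identifiers (UMIs, counted transcripts) in the Isx-9 library and 12633 to 15007 in the others. Of 37212 kept barcodes, 128 occurred in more than 1 library. Chgb-high cells, with at least 5 UMIs of the granule protein gene Chgb and at least 10 per 10000, made up 4.85% of cells in untreated wild-type organoids, 4.42% in untreated reporter organoids, 4.28% in DMSO and 47.8% in Isx-9. All 21 enteroendocrine and all 7 enterochromaffin marker genes tested were higher in Chgb-high cells than in the other cells of the libraries without Isx-9.

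Promoter sequences are shown for 4 members whose counts are described in the next paragraphs: Kcnh6 and Kcnj4, which rose after 6 h of Isx-9 and are the members with a match to part of the RE1 element bound by the neuronal gene repressor REST, and Kcnc1 and Kcnn4, which were higher and lower, respectively, in Chgb-high than in other cells. RefSeq promoters on GRCm38.p6, from 250 bases before to 50 after a gene's start, were matched for 98 of the 135 members. Each sequence is the 250 bases before the start, 5′ to 3′ on the strand of the gene.
Kcnh6, chr11:106007898-106008147, plus strand: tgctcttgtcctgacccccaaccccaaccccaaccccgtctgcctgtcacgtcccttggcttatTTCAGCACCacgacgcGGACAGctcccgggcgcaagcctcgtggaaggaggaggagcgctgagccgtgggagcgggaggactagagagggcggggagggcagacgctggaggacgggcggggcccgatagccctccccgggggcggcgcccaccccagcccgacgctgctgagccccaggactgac
Kcnj4, chr15:79505242-79505491, minus strand: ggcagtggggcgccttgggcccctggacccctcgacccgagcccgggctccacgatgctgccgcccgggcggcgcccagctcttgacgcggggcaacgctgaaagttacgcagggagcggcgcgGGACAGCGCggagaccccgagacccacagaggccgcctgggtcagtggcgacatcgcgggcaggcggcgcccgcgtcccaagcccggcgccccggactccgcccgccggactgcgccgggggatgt
Kcnc1, chr7:46396218-46396467, plus strand: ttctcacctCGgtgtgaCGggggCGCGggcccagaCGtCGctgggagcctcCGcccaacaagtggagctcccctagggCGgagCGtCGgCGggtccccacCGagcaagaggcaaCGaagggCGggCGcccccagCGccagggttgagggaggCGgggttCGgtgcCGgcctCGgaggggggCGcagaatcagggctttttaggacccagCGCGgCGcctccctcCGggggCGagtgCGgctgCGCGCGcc
Kcnn4, chr7:24370013-24370262, plus strand: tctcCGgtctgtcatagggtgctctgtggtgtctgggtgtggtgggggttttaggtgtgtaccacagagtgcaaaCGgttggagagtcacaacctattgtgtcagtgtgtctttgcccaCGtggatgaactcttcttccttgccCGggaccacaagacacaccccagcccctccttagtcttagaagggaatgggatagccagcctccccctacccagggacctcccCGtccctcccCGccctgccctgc
Capitals in Kcnh6 mark TTCAGCACC, the left part of RE1, and GGACAG, the start of its right part, 7 bases further on. On either strand TTCAGCACC occurred in 117 of 27025 genes' promoters (0.433%) and in 1 member, and TTCAGCACC followed after 7 bases by GGACAG occurred in 2 genes (0.00740%). That spacing was searched after the Kcnh6 sequence had been seen; the more usual spacing of 2 bases occurred in 4 genes (0.0148%) and in 0 members. Capitals in Kcnj4 mark GGACAGCGC, the right part of RE1, which occurred in 129 genes (0.477%) and in 1 member. In Kcnc1 and Kcnn4 the capitals mark CG dinucleotides, of which there are 30 in the Kcnc1 window (GC content 74.4%), some of them adjoining, and 6 in the Kcnn4 window (GC content 58.8%). In windows that include the 50 bases after the start, medians were 52.75% GC and 7 CG over all genes, and 61% and 12 over members. They were 65.1% and 19.5 for 28 members higher in Chgb-high cells, and 53.3% and 9 for 9 lower ones. Of the other motifs searched on both strands, the cAMP response element TGACGTCA, the EGR site GCGTGGGCG, the AP-1 site TGAGTCA and the MEF2 site matched 0 of the 36 members that rose at 6 h and had a promoter in the table, where 2.03%, 0.707%, 5.95% and 0.636% of all genes held them. The E-box CAGATG was found in 23 of 98 members (23.5%) and in 19.2% of all genes. A match describes the letters in the window and is not evidence of binding.

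After 6 h of Isx-9 the sorted stem cells had RNA from many more channel genes. At least 1 count was found for 63 and 68 of the 120 members in the DMSO libraries and for 114 and 109 in the Isx-9 libraries. More genes of all kinds were found as well, 21237 and 20942 in DMSO and 23881 and 23695 in Isx-9. Of 74 members that passed the filter on low counts, 57 rose and 5 fell (edgeR's quasi-likelihood test, Benjamini-Hochberg adjusted p under 0.05 over 17418 genes), where 27.3% of all tested genes rose and 20.0% fell. Their median log2 fold change was 3.27 beside 0.02 over all tested genes, and 3.05 when the 16 members with no count in DMSO were set to their lower bound. A member with almost no DMSO counts can only pass the filter through its Isx-9 counts, so the 24 tested members under 0.1 CPM in DMSO, all called higher as were 100.0% of all genes at that level (0.0% lower), carry no information on direction. Among the 28 tested members with at least 1 CPM in DMSO, 16 rose and 5 fell, against 18.9% and 24.6% of all genes at that level. By DMSO level, 17 of 22 members between 0.1 and 1 CPM rose and 0 fell (49.7% and 0.504% of all such genes). Between 1 and 10 CPM, 12 of 16 rose and 0 fell (29.2% and 2.49%). Between 10 and 100 CPM, 4 of 9 rose and 2 fell (17.9% and 25.9%), and over 100 CPM 0 rose and 3 of 3 fell (4.13% and 58.4%). In bulk RNA, a change in the number of cells of a type and a change of RNA per cell cannot be told apart. Markers of other cells moved in the same libraries: all 12 tested genes of a 16-gene neuron list rose, their summed level going from 7.81 and 8.82 CPM to 148 and 104, and all 8 of a mesenchyme list rose, from 38.5 and 36.3 to 215 and 177, while enteroendocrine markers summed to 141 and 207 in DMSO and 192 and 199 in Isx-9 (7 of 22 higher, 2 lower). Stem cell markers, those of the sorted cells themselves, fell in 7 of 12 cases and rose in 1, their sum going from 10578 and 10424 to 8177 and 6937. Endothelial markers rose in 4 of 4 cases, tuft markers in 4 of 8 and glial markers in 3 of 6 (1 lower). At the level where the filter alone sets the direction (under 0.1 CPM in DMSO) lay 5 of the neuron and 3 of the mesenchyme genes. So did 1 endothelial, 1 tuft and 1 glial gene, all called higher. None of these lists' genes was at 0 in all 4 libraries; their part in the result was not tested.

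**Figure D1:**
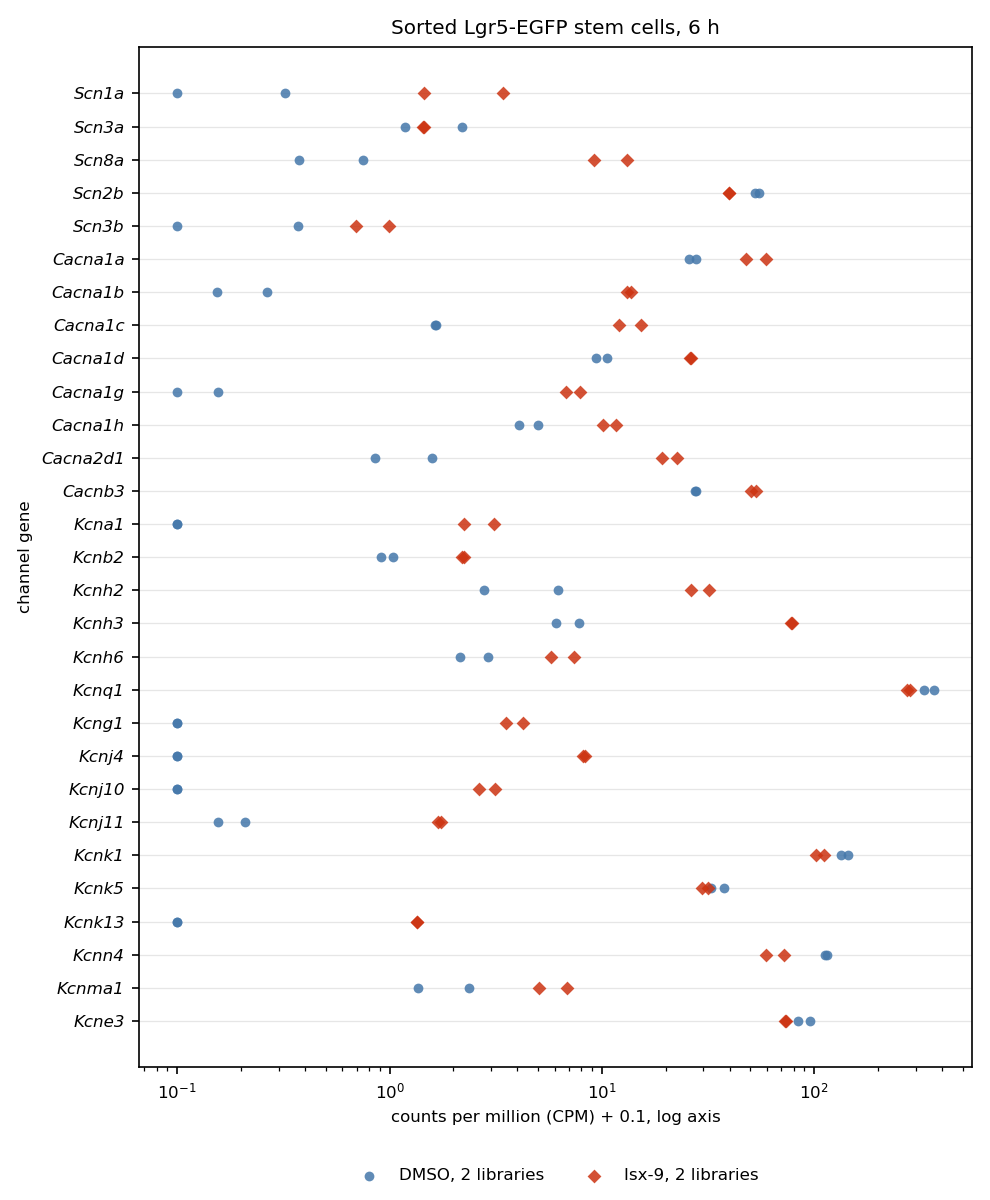
CPM plus 0.1 (log axis) of channel genes in each bulk library, with circles for the 2 DMSO libraries and diamonds for the 2 Isx-9 libraries. Most diamonds lie to the right of the circles, while Scn2b, Kcnq1, Kcnk1, Kcnk5, Kcnn4 and Kcne3 lie to the left and Scn3a overlaps.

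Among the sodium channel pores, 3 of 4 tested genes rose, or 2 of 3 leaving out those under 0.1 CPM in DMSO. Of all 16517 tested genes with at least 0.1 CPM in DMSO, 3854 rose and 3488 fell, which is the background for each family below. Scn8a, a sodium channel of neurons, had 12 and 5 counts in DMSO and 262 and 182 in Isx-9, which is log2 4.56 (SE 0.42, adjusted p = 8.7e-06). The Isx-9 libraries of Scn8a lay far above the DMSO libraries with no overlap. Scn1a went from 0 and 4 counts to 67 and 27 (log2 4.34, SE 0.91, adjusted p = 0.0024), a call that was lost without Isx-9 replicate 1 (adjusted p = 0.067). Scn3a, which marked Chgb-high cells as described further on, had 20 and 38 counts in DMSO and 27 and 27 in Isx-9, so the groups overlapped (log2 −0.23, adjusted p = 0.75). The β subunits tune gating and membrane placement of the pores. Scn4b rose from 6 and 0 to 39 and 19 (adjusted p = 0.016), Scn3b had 5 and 0 in DMSO and 12 and 18 in Isx-9 (adjusted p = 0.060). In the opposite direction, Scn2b fell from 1018 and 950 counts to 791 and 793 (log2 −0.44, SE 0.10, adjusted p = 0.0039), with no overlap.

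Calcium channel genes rose in 11 of 11 tested cases with at least 0.1 CPM in DMSO, 5 of 5 pore-forming α1 genes among them. At that level 3854 of all 16517 tested genes rose. A further 4 calcium channel genes, 2 of them α1, lay below it, where the filter admits only genes that rise. Cacna1b, the N-type channel of presynaptic endings, had 1 and 3 counts in DMSO and 272 and 261 in Isx-9 (log2 6.85, SE 0.44, adjusted p = 6.5e-07). The T-type gene Cacna1g, of the channels that open near rest, went from 0 and 1 to 157 and 134 counts, a ratio of 266 (47.4 at the lower end of a 95% interval that covers counting error only). Both were close to absent in DMSO and clearly present in each Isx-9 library. The L-type genes Cacna1c and Cacna1d, whose channels carry long-lasting calcium currents in muscle and endocrine cells, already had counts in DMSO: Cacna1c rose from 29 and 28 to 306 and 240 (log2 3.13, SE 0.28) and Cacna1d from 172 and 191 to 519 and 525 (log2 1.40, SE 0.16). Cacna1h, another T-type gene, rose from 74 and 89 to 202 and 231. Cacna1a, the P/Q-type channel, had 514 and 467 counts in DMSO and 1190 and 952 in Isx-9, a log2 fold change near 1.0 (SE 0.13, adjusted p = 0.00010). In each of these genes both Isx-9 libraries exceeded both DMSO libraries.

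The α2δ and β subunits of calcium channels, which carry the pore to the membrane, rose as well. Cacna2d1 went from 14 and 27 counts to 449 and 384 (log2 4.21, SE 0.29, adjusted p = 1.2e-06), and Cacna2d2 from 11 and 10 to 258 and 179. Cacnb3, with 512 and 498 counts in DMSO, had 1069 and 1010 in Isx-9 (log2 0.91, SE 0.11, adjusted p = 5.3e-05). Cacnb1 rose from 12 and 2 to 118 and 105 and Cacnb4 from 16 and 14 to 96 and 32, the Isx-9 libraries of Cacnb4 differing by more than those of the other β genes. Cacnb2, with 0, 2, 8 and 23 counts, did not pass the filter. The γ genes Cacng4, Cacng7 and Cacng8 encode partners of AMPA-type glutamate receptors. Cacng4 rose from 5 and 15 to 202 and 130 counts, while Cacng7 and Cacng8 had no DMSO count and were at least 12.2-fold and 7.32-fold higher against a floor of 3 counts over the DMSO group.

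Of the 23 tested voltage-gated potassium channel genes 19 rose and 1 fell, and of the 14 among them with at least 0.1 CPM in DMSO 10 rose and 1 fell. The ether-à-go-go family gene Kcnh3 went from 111 and 140 counts to 1584 and 1565 (log2 3.52, SE 0.14, adjusted p = 7.0e-08). Its DMSO counts were well above the floor and its Isx-9 libraries nearly equal. Kcnh2, whose channel shapes repolarisation in the heart, rose from 113 and 49 to 527 and 639, Kcnh7 from 120 and 132 to 533 and 490, and Kcnh6, with the partial RE1 match, from 38 and 51 to 113 and 146 (log2 1.41, SE 0.33, adjusted p = 0.0048; 0.059 without Isx-9 replicate 2). The delayed rectifier gene Kcnb2, with 15 and 17 counts in DMSO and 43 and 42 in Isx-9, did not reach the threshold (adjusted p = 0.053).

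Several voltage-gated potassium channel genes had no DMSO count. Kcnq5, a subunit of the neuronal M-current, had 44 and 17 counts in Isx-9 (at least 18.6-fold higher). The modifier subunit gene Kcng1 had 83 and 69 counts in Isx-9 (at least 46.4-fold), Kcna1 had 60 and 43 (at least 31.4-fold), and Kcns3 had 31 and 18 (at least 15-fold). All of them were at 0 in both DMSO libraries. Kcnq1, the epithelial member of the same family as Kcnq5, moved the other way: it fell from 6820 and 5945 counts to 5681 and 5458 (347 ± 28.0 to 278 ± 7.60 CPM, SD, n = 2; log2 −0.32, SE 0.08, adjusted p = 0.0059). The Kcnq1 groups did not overlap, but with library size as the only scaling its adjusted p was 0.059. Its antisense transcript Kcnq1ot1 did not pass (log2 −0.25, adjusted p = 0.070), and since the library kit does not mark strand, reads of the 2 overlapping genes cannot be told apart.

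Inward rectifiers pass potassium most easily into the cell and hold the membrane near rest. Of the 3 tested genes with at least 0.1 CPM in DMSO 2 rose and 0 fell; the other 5, called higher, were below that level. Kcnj4, with its partial RE1 match, had 0 and 0 counts in DMSO and 166 and 162 in Isx-9 (at least 100.1-fold higher), and Kcnj10, a glial channel, had 61 and 51 in Isx-9 (at least 34.2-fold). Kcnj11, the pore of the ATP-sensitive channel of endocrine cells, went from 2 and 1 to 32 and 33 counts, a ratio of 19.8 with a counting interval of 6.49 to 98.7. The channel of Kcnj11 needs the sulfonylurea receptor encoded by Abcc8, which rose from 36 and 29 to 1215 and 1041 counts. Kcnj2 rose from 90 and 88 to 189 and 216. Of 4 tested calcium- or sodium-activated genes with at least 0.1 CPM in DMSO 3 rose and 1 fell, and 2 below that level were called higher. Below it, the small-conductance gene Kcnn3 had 0 and 1 counts in DMSO and 78 and 62 in Isx-9. Above it, the large-conductance gene Kcnma1 had 42 and 23 in DMSO and 135 and 99 in Isx-9 (log2 1.72, edgeR adjusted p = 0.0037). The Kcnma1 call was lost without Isx-9 replicate 1. The intermediate-conductance channel gene Kcnn4 fell from 2091 and 2078 counts to 1189 and 1446 (114 ± 1.37 to 65.7 ± 9.12 CPM; log2 −0.79, SE 0.10, adjusted p = 9.8e-05), the lowest log2 fold change among the members that passed. Both Isx-9 libraries of Kcnn4 lay below both DMSO libraries.

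Tandem-pore channels carry the background leak of potassium. Here 3 of 7 tested genes rose and 1 fell (2 of 6 and 1 with at least 0.1 CPM in DMSO). Kcnk13 had 0 and 0 counts in DMSO and 25 and 25 in Isx-9 (at least 15.3-fold higher), Kcnk6 rose from 100 and 83 to 324 and 354, and Kcnk10 rose from 211 and 288 to 428 and 499 (log2 0.76, adjusted p = 0.0057). Kcnk5 did not pass the test, with 608 and 680 counts in DMSO and 592 and 633 in Isx-9 (adjusted p = 0.21). Kcnk1 fell from 2477 and 2606 to 2228 and 2035 (log2 −0.38, SE 0.08, adjusted p = 0.0032; 0.054 without Isx-9 replicate 2). Accessory subunits gave 2 higher and 1 lower of 5 tested (1 and 1 of 4 with at least 0.1 CPM in DMSO). Kcnmb4, a β subunit of the large-conductance channel, went from 0 and 3 counts to 46 and 35, and Kcnab3, a cytoplasmic β subunit, rose from 43 and 27 to 269 and 279; the antisense RNA Kcnab3os rose with it, from 4 and 4 to 62 and 62, and the unstranded libraries cannot separate the pair. Kcne3, the partner of Kcnq1, had 1555 and 1734 counts in DMSO and 1472 and 1457 in Isx-9 (log2 −0.30, SE 0.09, adjusted p = 0.021). The groups of Kcne3 did not overlap, yet this fall was the least firm of the 5: its call was lost with library size as the only scaling (log2 −0.17, adjusted p = 0.17), with no filter on low counts (adjusted p = 0.059), without DMSO replicate 2 (0.14), without Isx-9 replicate 1 (0.10) and without Isx-9 replicate 2 (0.13). Without Isx-9 replicate 2, 3 members in place of 5 were called lower. Kcnip4 did not differ detectably (log2 0.14, adjusted p = 0.83). The authors' deposited table, made with DESeq2, had 60 members higher and 4 lower of 99 with an adjusted p-value, where 20.5% and 13.1% of all 21025 such genes were, and the sign matched in 74 of the 74 members tested here.

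Other genes of the same physiology were read from 3 lists, beside 27.3% of all tested genes that rose and 20.0% that fell. Among proteins that bind or place channel pores, 10 of 17 tested genes rose and 1 fell (median log2 1.48): the ankyrin gene Ank2 went from 0 and 0 counts to 108 and 73, Stac2 from 0 and 0 to 115 and 66, and the fibroblast growth factor homologous factors Fgf12 and Fgf13 from 0 and 0 to 38 and 34 and from 0 and 1 to 35 and 12. Among other cation channels 14 of 22 rose and 1 fell (median log2 0.95), with Trpv4 going from 2 and 5 to 202 and 177. Among pumps, exchangers and calcium-store channels 13 of 25 rose and 3 fell (median log2 0.56), with the ryanodine receptor gene Ryr1 going from 1 and 1 to 197 and 174. In all of these named genes both Isx-9 libraries lay above both DMSO libraries. With at least 0.1 CPM in DMSO, 6 of 13, 11 of 19 and 11 of 23 genes of the 3 lists rose, with median log2 fold changes of 0.51, 0.47 and 0.28. Over the 50 channel genes at that level, of which 33 rose and 5 fell, the median was 1.74. Over all 16517 genes at that level, of which 3854 rose and 3488 fell, it was −0.02.

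Chgb-high cells of organoids that had never seen Isx-9 already held most of the channel RNA types. UMI sums of Chgb-high and other cells were compared within the 3 libraries without Isx-9 (untreated wild-type, untreated reporter and DMSO, in this order for all values below), and their levels are given in CPM, here UMIs per 1000000 UMIs of the cells summed. Of 68 members tested, 45 were higher in Chgb-high cells and 11 lower (edgeR's quasi-likelihood test with a term for library, Benjamini-Hochberg adjusted over 14969 genes), where 33.5% of all tested genes were higher and 35.1% lower. The median log2 difference was 3.58 for the members and −0.03 for all genes. Goblet (8 of 8 lower), Paneth (7 of 8 lower), enterocyte (8 of 12 lower) and tuft markers (8 of 10 lower) went the other way, and 11 of 11 tested neuron markers were higher.

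**Figure D2:**
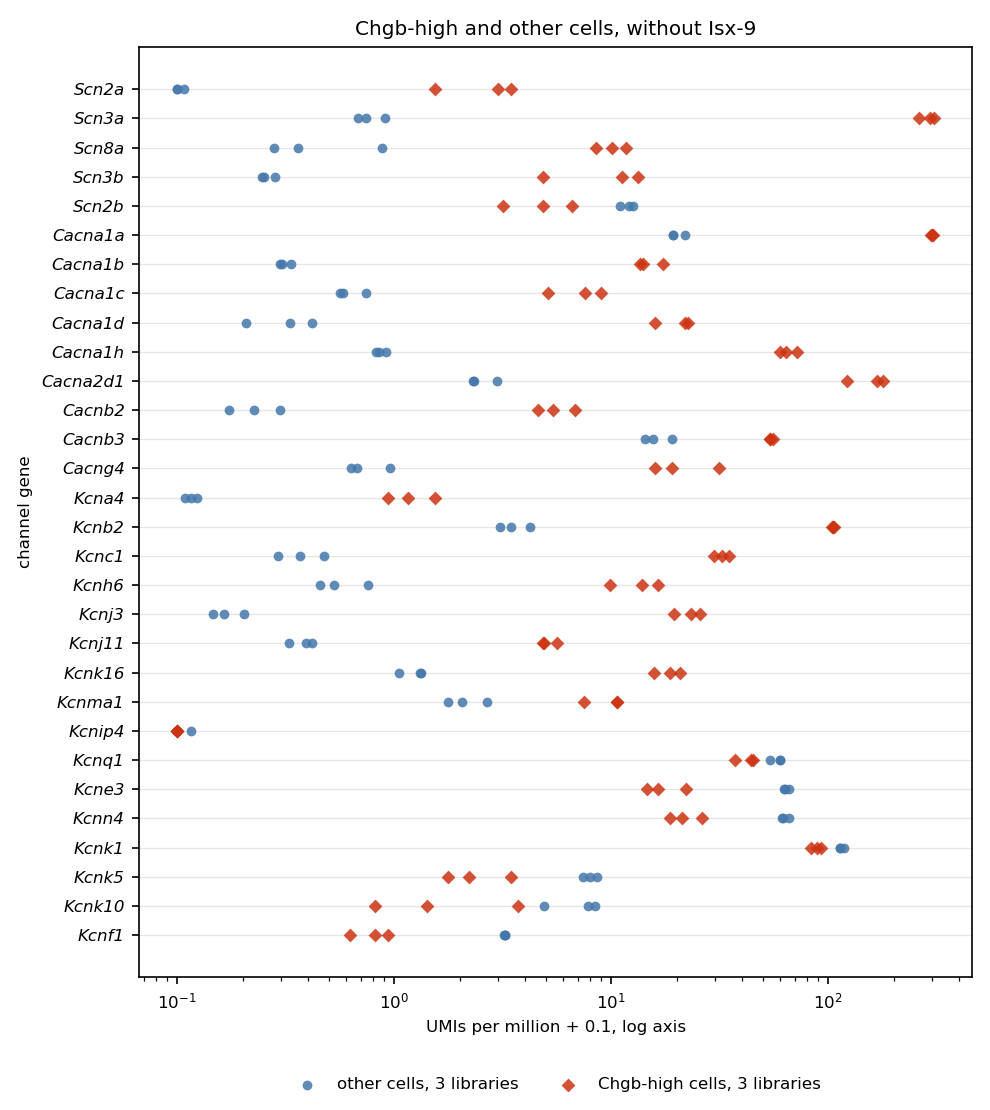
CPM plus 0.1 (log axis) of channel genes in Chgb-high cells (diamonds) and in all other cells (circles) of the 3 libraries without Isx-9. Scn3a shows the widest gap among the abundant genes, and Kcne3, Kcnn4, Kcnq1 and Kcnk1 lie to the left in Chgb-high cells.

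Among sodium channel genes, Scn3a had the most UMIs in these cells. It had 262, 307 and 294 CPM in Chgb-high cells and 0.806, 0.642 and 0.583 in other cells, a log2 difference of 8.31 (SE 0.11, adjusted p = 1.5e-11), and 92.8% of its UMIs lay in Chgb-high cells. A Scn3a UMI was found in 67.9%, 68.0% and 66.9% of Chgb-high cells and in 0.93%, 0.52% and 0.56% of the others, although the others were deeper (medians of 15289, 12913 and 13687 UMIs against 7924, 7609 and 7906). With each cell thinned to 5000 UMIs, which kept 336, 357 and 324 Chgb-high and 7286, 8138 and 7580 other cells with at least that many, the shares were 56.3%, 58.9% and 58.5% against 0.44%, 0.21% and 0.27%. The gap was the same in all 3 libraries. Scn8a was lower in level, with 8.39, 11.6 and 10.0 against 0.783, 0.262 and 0.178 CPM (log2 4.36, SE 0.44), and Scn2a was found almost only there, with 1.44, 2.90 and 3.34 against 0, 0.00793 and 0. Scn3b, a β subunit, was higher by 5.44 on the log2 scale. Scn2b was the exception, with 6.47, 4.75 and 3.06 CPM in Chgb-high cells and 12.5, 10.9 and 12 in the others (log2 −1.71, adjusted p = 2.0e-05).

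Calcium channel pores were higher in 5 of 5 tested cases. Cacna1a had 298, 304 and 301 CPM in Chgb-high cells and 21.7, 19.1 and 19.2 in the others (log2 3.50, SE 0.06, adjusted p = 8.1e-11). Unlike Scn3a it was not restricted to them: a Cacna1a UMI was found in 18%, 15% and 15.6% of other cells, and only 31.3% of its UMIs came from Chgb-high cells. Cacna1h had 63.8, 59.6 and 71.7 against 0.821, 0.753 and 0.721 (log2 5.98, SE 0.12), and the L-type Cacna1d 15.8, 22.4 and 21.7 against 0.106, 0.230 and 0.316 (log2 6.14, SE 0.28). Cacna1b and Cacna1c were higher by 5.70 and 3.33. Each of the 5 pores was higher in Chgb-high cells of every library. Among the subunits that traffic the pore, Cacna2d1 was higher (122, 178 and 167 against 2.88, 2.21 and 2.24; log2 5.56, SE 0.16), as was Cacnb3 (53.9, 55.7 and 53.9 against 18.9, 14.2 and 15.5; log2 1.34). Cacna2d2 was lower, but its libraries scattered from 0.264 to 1.67 CPM in Chgb-high cells (log2 −1.11, adjusted p = 0.043).

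Voltage-gated potassium channel genes were higher in 14 and lower in 2 of 19 tested cases. Kcnb2, a delayed rectifier, had 104, 106 and 105 CPM in Chgb-high cells and 4.14, 2.96 and 3.34 in the others (log2 4.50, SE 0.10, adjusted p = 3.6e-10). Kcnc1, whose CG-rich promoter is printed above and whose channel allows rapid firing, had 32.4, 34.8 and 29.7 against 0.190, 0.372 and 0.267 (log2 6.46, SE 0.22). In both the libraries of 1 class differed by far less than the classes did. Kcnh6 was higher by 4.38 and the silent subunit gene Kcng2 by 6.63. Of the inward rectifiers 5 of 7 were higher, led by Kcnj3 and Kcnj5, the subunits of the channel opened by G proteins below inhibitory hormone receptors: Kcnj3 had 25.6, 23.2 and 19.5 against 0.0456, 0.103 and 0.0648 (log2 7.88, SE 0.31), and Kcnj5 differed by 7.51. Kcnj11 had 4.79, 5.54 and 4.73 against 0.319, 0.293 and 0.227 (log2 3.74). The large-conductance subunit Kcnmb2 was higher by 7.78, Kcnip3, a calcium-binding partner of A-type channels, by 5.58, and the tandem-pore genes Kcnk2 and Kcnk16 by 6.69 and 3.59.

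The 11 members lower in Chgb-high cells included the 3 genes best known from epithelial ion transport. Kcne3 had 22.1, 14.5 and 16.4 CPM there and 65.7, 63.2 and 62.5 in the others (log2 −2.27, SE 0.11, adjusted p = 5.2e-08). Kcnn4 had 26.1, 18.5 and 21.1 against 62.0, 65.9 and 61.4 (log2 −1.94, SE 0.11). Kcnq1 had 44.8, 37.2 and 43.9 against 59.7, 53.7 and 59.6 (log2 −0.88, SE 0.07). For these 3 genes the classes did not overlap in any library. Kcnf1, Kcnk10, Kcnk5 and Kcnq1ot1 were lower by −2.59, −2.34, −2.17 and −1.48 on the log2 scale, and Kcnk1 by −0.81, with 88.7, 82.8 and 92.3 against 114, 118 and 113. Kcnk6 (log2 −1.40, adjusted p = 0.029) lost its call with DESeq2 (adjusted p = 0.089), without the untreated reporter library (0.14) and without the untreated wild-type library (0.090). The 5 members that fell in sorted stem cells at 6 h (Scn2b, Kcnq1, Kcnk1, Kcnn4 and Kcne3) were all among the 11 that were lower in Chgb-high cells (45.5% of those), where 56.4% of all genes that fell at 6 h were lower there. Of the 57 that rose, 26 (45.6%) were among the 45 that were higher (57.8% of those), close to the 42.3% of all genes that rose at 6 h.

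Other lists moved with the channel genes in Chgb-high cells: 13 of 16 tested pore partners, 13 of 22 other cation channels and 17 of 22 pumps and calcium-store genes were higher, and 2, 4 and 2 lower. Of all tested genes 33.5% were higher and 35.1% lower.

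Tph1, the enzyme of serotonin synthesis, marks enterochromaffin cells, and splitting the Chgb-high cells by it showed channel genes that differ within the class. Tph1-high cells had at least 3 Tph1 UMIs and at least 5 per 10000, and there were 172, 199 and 178 of them in the 3 libraries. Of 35 members tested, 7 were higher in Tph1-high than in the other Chgb-high cells and 5 lower, where 10.2% of all tested genes were higher and 9.79% lower. The median log2 difference was −0.07 for the members and 0.01 for all genes. Scn3a had 500, 536 and 498 CPM in Tph1-high cells and 130, 119 and 124 in the other Chgb-high cells (log2 1.96, SE 0.07, adjusted p = 6.8e-13). Thus every library showed Scn3a on both sides, at a clearly higher level in the Tph1-high cells. Kcnc1 was higher by 1.51 (63.0, 54.8 and 41.5 against 15.3, 18.3 and 19.9; SE 0.18), Kcnab3 by 1.44, Cacna1d by 1.24, Cacna1b by 1.23 and Cacna1h by 1.01 (109, 78.2 and 95.9 against 38.4, 44.3 and 51.5; SE 0.13). Kcnq1 was higher by 0.64, a call lost with DESeq2 (adjusted p = 0.19), with all 4 libraries (0.067) and with a stricter Tph1 limit of 15 per 10000 (log2 0.26, 0.24). With DESeq2 the calls of Kcnab3 (0.052) and Cacna1b (0.075) were lost too.

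**Figure D3:**
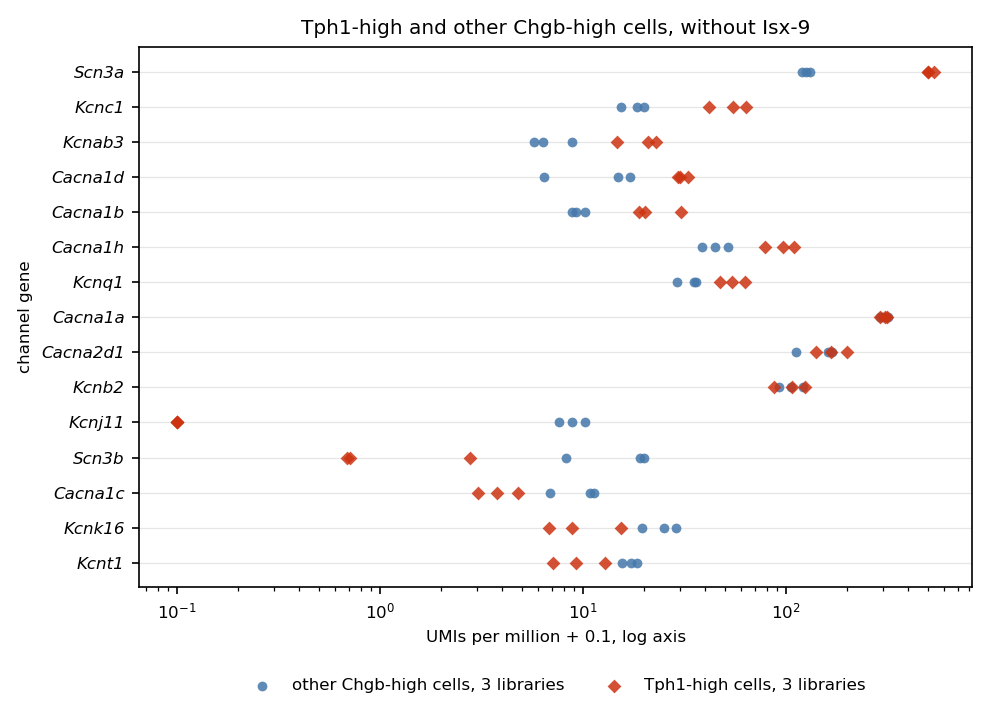
CPM plus 0.1 (log axis) of channel genes in Tph1-high cells (diamonds) and other Chgb-high cells (circles) of the 3 libraries without Isx-9. Scn3a and Kcnc1 lie to the right in Tph1-high cells, Kcnj11 and Scn3b to the left, and Cacna1a overlaps.

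Lower in Tph1-high cells was Kcnj11, with 0 UMIs in all 3 libraries against 7.46, 10.1 and 8.67 CPM in the other Chgb-high cells, at least 13.9-fold lower against a floor of 3 UMIs over the group. Scn3b had 2.68, 0.583 and 0.611 against 19, 19.7 and 8.16 (log2 −3.66, SE 0.42, adjusted p = 3.4e-06), the reverse of Scn3a. Cacna1c and Kcnk16 were lower by −1.40 and −1.32, and Kcnt1, a sodium-activated channel gene, by −0.90 (adjusted p = 0.016; 0.076 without the DMSO library and 0.095 without the untreated reporter library, 0.37 with DESeq2, 0.32 with all 4 libraries and 0.40 with the stricter limit). Cacna1c lost its call with DESeq2 (0.29), and with all 4 libraries Cacna1c (0.21), Kcnk16 (0.12) and Scn3b (0.11) did. Cacna1a had 314, 288 and 307 against 289, 316 and 296, with overlapping classes (log2 −0.07, SE 0.07, adjusted p = 0.59), but with the stricter limit it was called higher (log2 0.28, adjusted p = 0.0076). That limit also called Kcne3 (log2 −2.75, adjusted p = 2.7e-05) and Kcnn4 (log2 −1.13, 0.0021) lower, which were not called otherwise. DESeq2 called 4 higher and 3 lower, and the stricter limit called 12 higher and 6 lower. With all 4 libraries, 7 were higher and 0 lower; in that library Scn3a had 518 against 243 CPM and Kcnj11 2.20 against 1.88.

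Selecting cells by single marker genes gave a finer map of the channel genes, reported as levels with no test. The selections could share cells, and their overlap was not counted. In Neurog3-high Chgb-high cells, which hold the transcription factor of endocrine progenitors (37, 45 and 42 cells), Cacna1a stood at 499, 450 and 500 CPM and Scn3a at 339, 419 and 325, while Scn3b and Kcnj11 were at or near 0. Cells high in the hormone genes Cck, Gcg or Ghrl had Scn3a means of 70.9, 68.5 and 74.4 and Kcnj3 means of 44.4, 43.4 and 55.6 over the 3 libraries, where Tph1-high cells had 511 and 17.4. Ghrl-high cells, only 18, 15 and 20 in number, had the highest Kcnk16 values, 128, 56.9 and 56.4. Outside the Chgb-high class, Trpm5-high cells, which carry the cation channel of tuft cells (174, 153 and 140 cells), had Cacna1a at 124, 103 and 112, Kcnq1 at 144, 123 and 111 and Kcnj11 at 12.6, 5.0 and 5.48. Lgr5-high cells had Cacna1a at 15.2, 13.2 and 12.9. Muc2-high cells, selected by the goblet mucin gene, had Kcnma1 at 22.1, 22 and 22.5 and Kcnh3 at 38.6, 29.6 and 39.3, against at most 1.32 and 6.51 in Lgr5-high cells. Lyz1-high cells, selected by a Paneth cell gene, had means of 16.4 for Kcnma1 and 33.2 for Kcnh3, and Neurog3-high cells 21.2 and 19.8. Apoa1-high cells, selected by an enterocyte gene, had the highest Kcnk5 (21.7, 25.0 and 25.7), against 6.63, 6.54 and 6.70 in Lgr5-high cells. Lgr5-high cells in turn had the highest Scn2b (17.0, 13.1 and 15.8) and Kcne3 (78.7, 72.8 and 71.2), with Kcnn4 at 67.9, 65.8 and 63.7 beside 55.0, 80.0 and 52.0 in Trpm5-high cells, and with Kcnq1 at 76.1, 64.5 and 73.6.

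**Figure D4:**
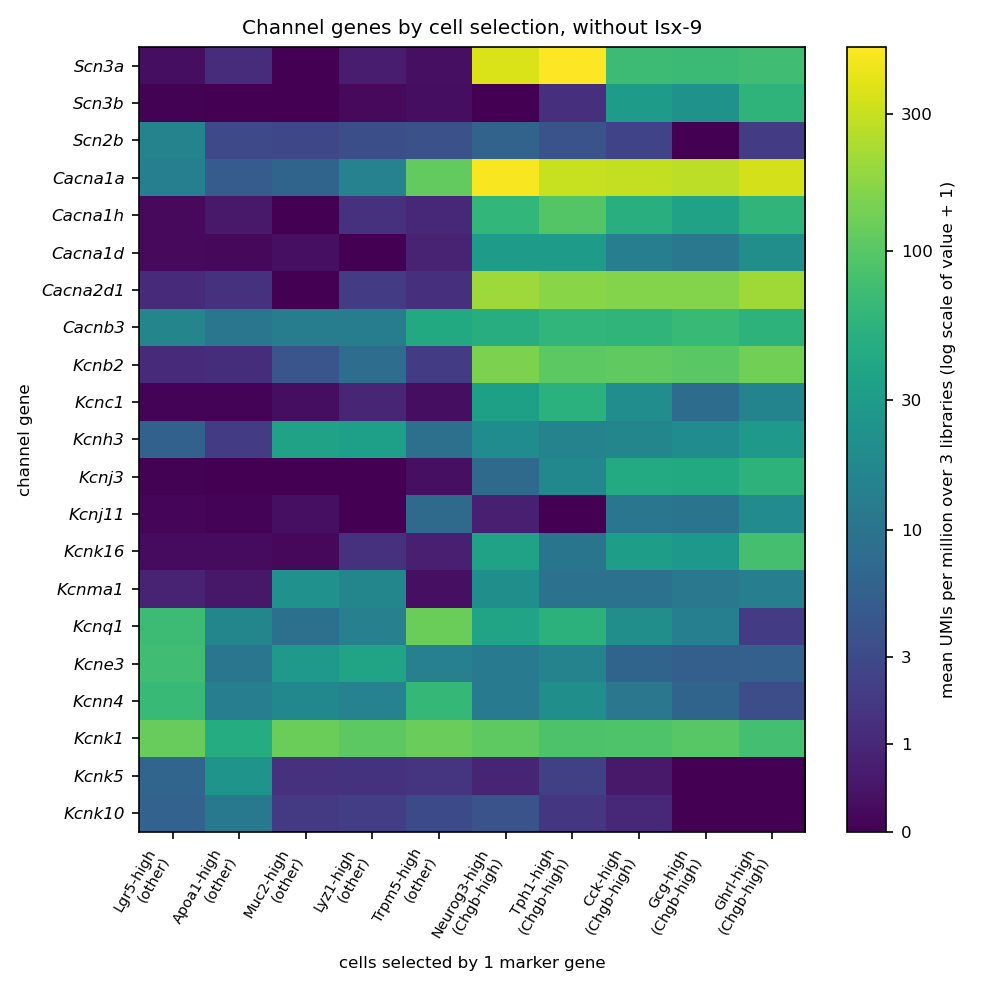
Mean CPM over the 3 libraries without Isx-9 for channel genes (rows) in cells selected by 1 marker gene each (columns), coloured on a log scale of value + 1. Scn3a, Cacna1a, Cacna2d1 and Kcnb2 are bright across the Chgb-high selections at the right, and Kcnq1, Kcne3 and Kcnn4 in Lgr5-high cells at the left.

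At 6 d of Isx-9, organoids held RNA of nearly every channel gene. With 1 library per treatment there is no test, intervals are exact 95% intervals that cover counting error only, and genes are named by the size of their ratio. The Isx-9 library listed 129 members, against 85, 88 and 88 in the others, and 32 members were listed there alone. Over all genes it listed 20063, against 17610, 17496 and 17527 in the others, and 2180 genes were listed there alone. Among 101 members with at least 30 UMIs over the DMSO and Isx-9 libraries, 87 were at least 2-fold higher in Isx-9 and 3 at least 2-fold lower, where 34.8% of all 16795 genes were higher and 4.82% lower. The median ratio of the members was 18.2, or 17.5 with the 22 members that had no DMSO UMI at their bound. By level in DMSO, 72 of 77 members under 1 CPM were higher and 0 lower (76.4% and 3.70% of all such genes), 13 of 16 from 1 to 10 CPM were higher and 2 lower (36.6% and 5.48%), and 2 of 8 at 10 CPM or more were higher and 1 lower (6.47% and 5.18%). Untreated reporter organoids against DMSO, as a background, gave 0 of 58 members higher and 1 lower (0.251% and 0.359% of all genes), and within Chgb-high cells 1 of 36 higher and 1 lower (0.435% and 0.63%).

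Cacna1a and Scn3a had the highest levels of all members after treatment, in CPM with no correction for length. Cacna1a had 30.2, 27.4 and 27.2 in the libraries without Isx-9 and 165 in Isx-9, a ratio of 6.08 (5.87 to 6.31), and Scn3a 8.85, 9.59 and 8.90 and then 112, a ratio of 12.6 (11.9 to 13.4). Cacna2d1 went from 6.92 to 102 (14.8, 13.8 to 15.9) and Kcnb2 from 6.22 to 69.1 (11.1, 10.3 to 12). The 3 libraries without Isx-9 lay close together in each of these genes. Larger ratios came from genes that were almost absent before. Kcna1 had 3 UMIs in DMSO and 538 in Isx-9 (202, 68.8 to 983) and Cacna1g 6 and 621 (117, 53.3 to 319). The tandem-pore gene Kcnk9, the A-type channel partner Kcnip1, Cacng8, Cacng2 and the sensory neuron sodium channel gene Scn11a had no DMSO UMI and were at least 182, 127, 130, 101 and 78.9-fold higher. Kcnk12 had a ratio of 109. The members at least 2-fold lower were all potassium channel genes: Kcne3 went from 61.2 to 14.8 CPM (ratio 0.243, 0.230 to 0.256), Kcnk5 from 8.38 to 3.23 (0.385) and Kcnf1 from 3.04 to 1.06 (0.347). Among those that stayed within 2-fold were Kcnn4 (0.638), Kcnk10 (0.662), Kcnk1 (0.92), Kcnq1 (1.05) and the sodium channel β gene Scn2b (0.664). With TMM scaling between the libraries, which moves the median log2 ratio of all genes from 0.40 to 0.02, Kcnn4 passed the limit (0.491) and Kcnq1 lay below 1 (0.807).

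Summed markers of cell types differed too, and 2 of the lists were not confined to cells outside the Chgb-high class. In DMSO organoids neuron markers summed to 456 CPM in Chgb-high cells and 14.9 in the other cells. Mesenchyme markers summed to 1171 and 18.4 in the same cells, although of 4 tested mesenchyme genes 2 were higher in Chgb-high cells and 2 lower. The part of the share of Chgb-high cells in the sums over all cells was not tested. Over all cells, summed enteroendocrine markers went from 877 CPM in DMSO to 10907 in Isx-9, neuron markers from 27.4 to 676 and mesenchyme markers from 51.0 to 423. Goblet markers went from 3963 to 565, Paneth markers from 5274 to 459 and enterocyte markers from 1800 to 342.

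Within Chgb-high cells, the channel genes that had been higher in this class without Isx-9 were divided: of the 44 of those 45 with at least 30 UMIs, 22 lay within 2-fold of their DMSO level, 20 were at least 2-fold higher and 2 at least 2-fold lower (median ratio 1.56, from 0.406 to 13.7). Of 90 members with at least 30 UMIs, 55 were at least 2-fold higher in the 4786 Chgb-high cells of the Isx-9 library than in the 384 of the DMSO library and 4 at least 2-fold lower, where 24.4% of all 15064 genes were higher and 4.31% lower. The median ratio was 2.91, or 2.06 with the 22 members that had no DMSO UMI at their bound. Of the 55 members with more than 3 DMSO UMIs, 24 were higher and 4 lower, a limit at which all genes were not counted. Among the 27 with at least 10 CPM in DMSO 8 were higher and 1 lower (4.24% and 4.44% of all such genes). From 1 to 10 CPM 16 of 28 members were higher and 3 lower (31.5% and 6.42% of all such genes). Under 1 CPM in DMSO 31 of 35 members were higher (88.6%), beside 89.0% of all such genes, so the channel genes did not stand apart at that level. Scn3a had 294 CPM in DMSO and 272 in Isx-9 (ratio 0.925, 0.869 to 0.986), Cacna1a 301 and 317 (1.05, 0.989 to 1.12), Cacna1d 21.7 and 23.3 (1.07, 0.852 to 1.37) and Cacna1h 71.7 and 54.2 (0.755, 0.664 to 0.862). For Scn3a the ratio was 0.830 with TMM scaling and 1.12 without called doublets, and for Cacna1a 0.944 and 1.23, so the side of 1 depended on the setting. Called doublets were 831 in the Isx-9 library and 0 in DMSO, so their removal changed the Isx-9 side alone. The make-up of the class differed: Tph1-high cells were 46.4% of it in DMSO and 11.6% in Isx-9, and Neurog3-high cells 10.9% and 26.0%. In the Tph1-high cells Scn3a had 498 CPM in DMSO and 518 in Isx-9 (ratio 1.04, 0.961 to 1.13), and in the other Chgb-high cells 124 and 243 (1.95, 1.72 to 2.23). Cacna1a had ratios of 1.09 (0.985 to 1.21) and 1.06 (0.978 to 1.16) in the same cells. Over all cells the same genes had ratios of 12.6 and 6.08, and the share of Chgb-high cells was 47.8% in Isx-9 and 4.28% in DMSO.

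**Figure D5:**
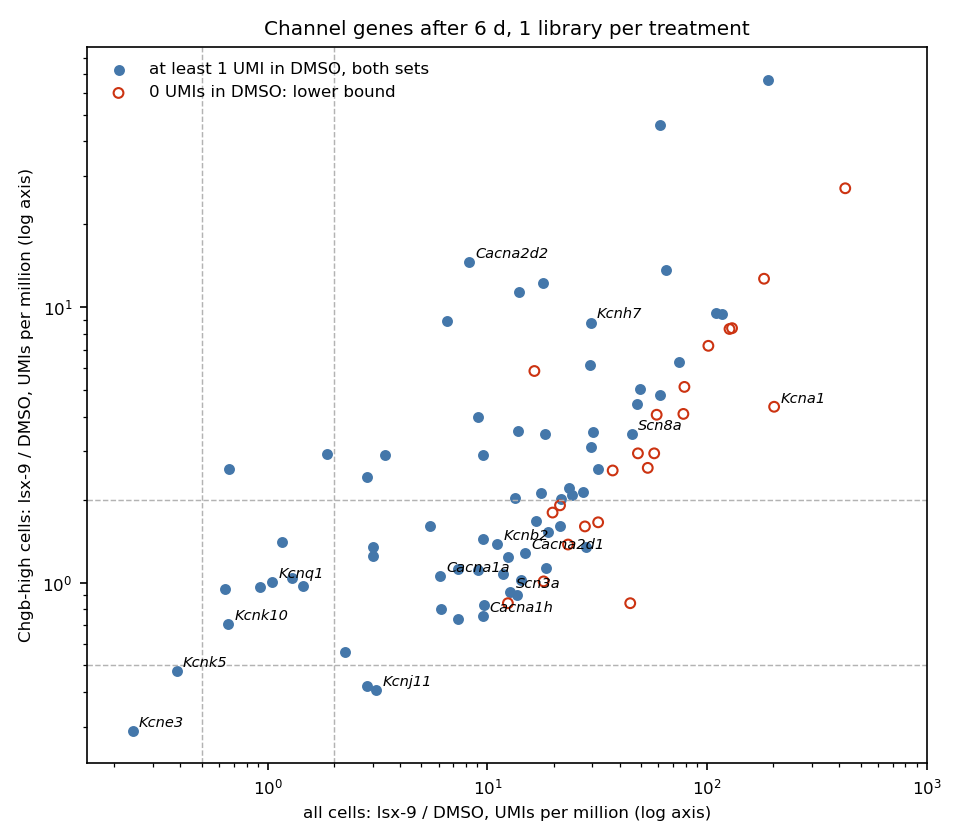
Ratio of Isx-9 to DMSO in CPM over all cells (horizontal) and within Chgb-high cells (vertical) for 90 channel genes on log axes, with the 22 genes that had no DMSO UMI in Chgb-high cells drawn at their lower bound. Scn3a and Cacna1a lie near 1 on the vertical axis, and Kcne3 lies under 1 on both.

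Some genes that were rare in Chgb-high cells of DMSO organoids had many UMIs in those of Isx-9 organoids, a class that is also far larger. Kcnk9 had 0 UMIs in DMSO and 452 in Isx-9 (at least 12.7-fold higher), and Kcnmb4 1 and 545 (45.8, with a counting interval that begins at 8.19). Cacna2d2, which was lower in Chgb-high cells without Isx-9, had 1.67 and 24.4 CPM (14.6, 6.69 to 39.9; 92.3 against the untreated reporter library). Kcnip2 had a ratio of 13.7 and Kcnh7 of 8.79 (5.22 to 16.1). Kcnmb4, Cacna2d2 and Kcnip2 encode accessory subunits. Smaller ratios were seen for Scn8a (10.0 to 34.5; 3.45, 2.48 to 4.94), for Kcnma1 (10.6 to 30.8; 2.91) and Kcnc1 (29.7 to 61.9; 2.08). Lower in Isx-9 were Kcne3 (16.4 to 4.75; 0.289, 0.216 to 0.394; 0.0627 without called doublets), Kcnj11 (4.73 to 1.92; 0.406, 0.239 to 0.730), Kcns2 (0.421) and Kcnk5 (0.477), which rest on 7 and 12 DMSO UMIs (Kcnk5 0.219 without called doublets), and Kcnj2 went from 13.6 to 7.60 (0.558). The values without called doublets dropped cells from the Isx-9 library alone. Neuron markers within the class summed to 432, 427 and 456 CPM without Isx-9 and to 1294 with it. Mesenchyme markers within the class went the other way, with sums of 667, 1228 and 1171 without Isx-9 and 539 with it. The part of both lists in these ratios was not tested.

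The cells of the Isx-9 library that were not Chgb-high also held channel RNA. Of 85 members with at least 30 UMIs over both libraries, 69 were at least 2-fold higher than in the other cells of DMSO organoids and 3 lower. Their median ratio was 11.9 beside 1.15 over 15813 genes, of which 27.8% were higher and 4.58% lower. A member with almost no DMSO UMIs can pass this limit only through its Isx-9 UMIs, which sets its direction. Genes were not split by DMSO level for these cells, so the counts and the median include such members. Over all cells, 76.4% of all genes under 1 CPM in DMSO were higher. Cacna1a went from 19.2 to 72.6 CPM, Cacna2d1 from 2.24 to 34.4, Kcnb2 from 3.34 to 22.6, Scn3a from 0.583 to 14.4 and Scn8a from 0.178 to 12.3. A Scn3a UMI was found in 11.7% of these other cells and in 78.4% of the Chgb-high cells of the same library. RNA released into the droplets can place UMIs in cells that do not express a gene. Over 80 channel genes with at least 50 UMIs, the other cells' level was between 2.84% and 443% of the Chgb-high level, with a median of 22.6%, whereas the 21 enteroendocrine markers ranged from 1.76% to 50.5% with a median of 10.7%. The granule gene Chga stood at 45.4 against 2583 CPM (1.76%), Scn3a at 5.28% and Cacna1a at 22.9%, and Kcna1 was higher outside the class (5.47 against 3.62 CPM). How much released RNA added to the other cells was not tested. In these other cells summed enteroendocrine markers went from 128 to 1042 CPM, neuron markers from 14.9 to 297 and mesenchyme markers from 18.4 to 352; their part in the result was not tested. In Lgr5-high cells of the Isx-9 library (2738 cells), Cacna1a stood at 49.3 against 12.9 in DMSO, Cacna2d1 at 26.7 against 0.690, Scn8a at 12 against 0.110 and Kcne3 at 22.5 against 71.2.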

How the data were processed

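The authors' bulk files hold raw read counts per gene; the submitters' processing notes name Trim Galore 0.6.4, HISAT2 and HTSeq 0.12.4 on GRCm38, while no source used here gives the strand setting of the counting. Single-cell files hold UMI counts per barcode, deposited by the authors from 10x libraries; the notes list Cell Ranger 3.1.0 and Seurat 3.1.5. The authors' deposited comparison gives a mean normalised signal, log2 fold changes, a test score and p-values from DESeq2 1.24.0, per the submitters' processing notes.

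A barcode counted as a cell from 500 genes and 1000 UMIs upward, with a mitochondrial share of UMIs of no more than 20%. Scrublet, as run in scanpy 1.11.5, marked 1, 0, 0 and 831 cells and so had not worked in 3 libraries; no doublets were removed, a change from the plan. Counts were tested with edgeR 4.0.16 (R 4.3.3; filterByExpr, TMM, glmQLFTest, 2-sided, Benjamini-Hochberg adjusted p under 0.05 over all tested genes). Single-cell tests used UMI sums per library and class. On simulated data, 63.5% of 200 genes changed 2-fold were recovered in the bulk design of 17418 genes, with 11 false calls. At 6 d a gene was past the fold at a ratio of 2 or 0.5 with at least 30 UMIs over both libraries. Fold changes on the log2 scale come from fitted counts.

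Members, lists and tests were chosen with earlier results of these data known. Genes named were the most extreme members per comparison and a set of channel genes named whatever their result; other members were added for their role after their values were seen. Results for some genes are not reported here. Alternatives were DESeq2 1.42.0, library size alone, no filter, a replicate block, other Chgb and Tph1 limits, other controls and leaving out each library.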

Additional observations from a re-analysis of the deposited data

Results flagged for a closer look

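For some channel genes, those given here among them, the values of a pair of related comparisons lay on opposite sides of no change. None of these differences was itself tested, and for Kcnq1 and Scn2b the second value does not settle a side. Kcnk10 rose in sorted stem cells at 6 h (log2 0.76) and stood at 0.662 of the DMSO level in whole organoids at 6 d (0.596 to 0.735, counting error only), where the cells compared also differ. Kcnq1 fell at 6 h (log2 −0.32) and had a ratio of 1.05 at 6 d (1.02 to 1.08), which was 0.807 with TMM scaling. Kcnk6 was lower in Chgb-high than in other cells of the libraries without Isx-9 (log2 −1.40), but had 2.43 UMIs per 1000000 (CPM) in Chgb-high and 1.04 in other cells of the Isx-9 library, a ratio of 2.33 (1.71 to 3.19). Scn2b was likewise lower without Isx-9 (log2 −1.71), while its ratio in the Isx-9 library was 1.03 (0.895 to 1.18, which includes 1), from 7.90 and 7.69 CPM. Cacna2d2, also called lower in Chgb-high cells without Isx-9, had 24.4 CPM in Chgb-high and 5.47 in other cells of the Isx-9 library.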

How the results depend on the processing

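At 6 h between 46 and 59 channel genes were called higher and between 3 and 5 lower when each library was left out in turn. Library size as the only scaling, which moved the median log2 fold change of all genes from 0.02 to 0.14, called 3 lower. DESeq2 called 55 higher and 5 lower. Replicate numbers did not pair the bulk libraries (r = 0.0125 over 11999 genes between the replicate differences of the treatments), and a fit with the replicate number as a block called 57 higher and 5 lower. Leaving out each library gave log2 fold changes from −0.28 (without Isx-9 replicate 2) to 0.50 for Kcnip4, and from −0.64 to 0.31 (without DMSO replicate 2) for Scn3a. In DMSO 39 and 37 members had at least 10 counts.

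Of Chgb-high against other cells, all settings called 44 to 53 members higher and 9 to 11 lower. Of Tph1-high cells, the stricter Tph1 limit called 12 higher, DESeq2 4 higher and 3 lower, no filter 11 higher and 9 lower, and all 4 libraries 0 lower; leaving out each library gave 7 to 9 higher and 4 to 7 lower. With the stricter Tph1 limit Kcne3 (−2.75) and Kcnn4 (−1.13) were called lower, and the log2 difference turned to 0.28 for Cacna1a, now called higher, 0.22 for Kcnb2, 0.25 for Kcnh6 and 0.23 for Kcnma1. Leaving out each library in turn, it ran from −0.11 to 0.011 for Cacna1a, −0.42 to 0.069 for Kcnma1, −0.29 to 0.14 for Kcnb2, −0.26 to 0.035 for Kcnn4 and −0.58 to 0.045 for Kcne3, the positive values coming without the untreated reporter library for Cacna1a and Kcnma1, without the DMSO library for Kcnb2 and Kcnn4, and without the wild-type library for Kcne3.

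At 6 d a fold of 3 left 1 member lower over all cells and 1 within Chgb-high cells. Within Chgb-high cells 1 was lower with at least 100 UMIs and 2 with at least 30 Chgb UMIs per 10000, and Scn3b had a ratio of 0.901 against untreated reporter organoids. Removing called doublets or the 8% of cells with the highest doublet scores, chosen after seeing the data, kept 87 higher and 3 lower over all cells. Called doublets lay in the Isx-9 and not in the DMSO library, so their removal changed the Isx-9 side alone. The causes were not tested. Depth limits the rarest genes, for which only bounds could be given.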

Other observations

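The genes that work with the channels were also read at 6 d. Of the pore partners with at least 30 UMIs, 18 of 23 were at least 2-fold higher in the Isx-9 library and 1 lower; of other cation channels 22 of 29 were higher and 2 lower; of pumps, exchangers and calcium-store channels 14 of 26 were higher and 0 lower, beside 34.8% and 4.82% of all genes. All 15 neuron markers with that many UMIs were higher.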
